A study of Mus musculus with 16 samples.

Results

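The genes described here are the 10 that break down haem and move, store and take up iron: Hmox1, Hmox2, Blvra, Blvrb, Slc48a1, Fth1, Ftl1, Slc40a1, Tfrc and Slc11a2. They were taken by symbol, with every array probe whose accession belongs to them, which gave 18 probes among 56605 and 10 genes among 22911. All 18 probes passed the filter on dim probes, against 27579 probes and 14094 genes in all. The arrays compared primary podocytes, the epithelial cells of the kidney's filtration barrier, grown out from glomeruli of male Jcl:ICR mice in 4 groups of 4 single-colour arrays. Tsc2Δpodocyte mice carry 2 floxed Tsc2 alleles and a Cre transgene whose activity is restricted to podocytes, which limits the deletion to cells of that lineage. Tsc2flox/flox mice carry the same floxed alleles and no Cre, so that the transgene itself is present in the Tsc2Δpodocyte groups only. Tsc2 encodes a brake on the growth kinase mTORC1, which rapamycin inhibits. The untreated groups came from mice 4 weeks old, and the Tsc2Δpodocyte + Rapamycin and Tsc2flox/flox + Rapamycin groups from mice 5 weeks old, 1 week after rapamycin.

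Haem is an iron-holding ring that cells make for haemoglobin, cytochromes and other enzymes, and that is toxic when free. Haem oxygenase opens the ring and releases iron, carbon monoxide and biliverdin, and biliverdin reductase turns biliverdin into bilirubin. The iron set free is stored in ferritin, a shell of heavy and light chains, or leaves the cell through ferroportin, while transferrin receptor and the divalent metal transporter bring iron in. In the kidney, haem oxygenase is known as a protein induced by oxidants and by free haem.

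Values are log2 signals relative to the 75th percentile of the same array, so that 0 is that percentile, and differences are log2 differences between group means with limma's standard error (SE), 95% interval and an adjusted p over all 27579 probes tested. A gene was said to rise or fall where its brightest probe had an adjusted p under 0.05. Levels of different probes are not compared with each other. On the check of the deletion, Tsc2 by its brightest probe was 2.07, 1.99, 2.31 and 1.93 in Tsc2Δpodocyte replicates 1 to 4 and 3.61, 3.40, 2.95 and 3.71 in Tsc2flox/flox replicates 1 to 4. It was 2.07, 2.73, 2.05 and 2.09 in Tsc2Δpodocyte + Rapamycin and 3.65, 3.47, 2.83 and 2.93 in Tsc2flox/flox + Rapamycin. Tsc2 was lower in every Tsc2Δpodocyte array than in any Tsc2flox/flox array under the same treatment, by 1.35 without treatment (SE 0.22, adjusted p = 0.00097) and by 0.99 with rapamycin (SE 0.22, adjusted p = 0.0124). Whether its probes lie in the deleted part was not determined. Of 10 podocyte markers, 9 or 10 were well above background on each array, none passed in the untreated genotype comparison, and their summed level ranged from 138 to 261 times the array's 75th percentile in Tsc2Δpodocyte and from 119.5 to 154.5 in Tsc2flox/flox. With rapamycin 1 of the 10 was higher in Tsc2Δpodocyte, where 6.20% of all genes were, and 0 were lower. The summed level then ran from 144.3 to 272.7 in Tsc2Δpodocyte + Rapamycin and from 144.1 to 183.6 in Tsc2flox/flox + Rapamycin. Untreated and rapamycin arrays sat on different slides and came from mice of different ages, so treatment, slide and age cannot be told apart. On each slide the Tsc2Δpodocyte samples filled 1 row and the Tsc2flox/flox samples the other, and the effect of the position cannot be told apart from that of the genotype. The labels do not say that the 4 samples of a group came from separate mice, so p-values measure the spread between these samples only. In RNA from whole cultures, more cells of a type and more RNA per cell cannot be told apart.

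Without treatment, 6 of the 10 genes were higher in Tsc2Δpodocyte than in Tsc2flox/flox: Hmox1, Blvra, Blvrb, Slc48a1, Fth1 and Slc11a2. The 3 largest differences were in haem oxygenase 1, biliverdin reductase B and the haem transporter, at 3.63-fold, 3.35-fold and 2.81-fold. Over all genes tested, 10.3% were higher by the same rule. None of the 10 fell, where 9.20% of all genes did. With a difference of at least 1.5-fold asked for as well, 4 of the 10 remained, Hmox1, Blvrb, Slc48a1 and Fth1, against 10.0% of all genes in either direction. Probe by probe, 11 of 18 were higher, against 9.59% of all probes. In 5 of the 10, every Tsc2Δpodocyte array was above every Tsc2flox/flox array, which held for 13.5% of all genes. The median difference was 0.53 over the 10 genes and -0.01 over all genes.

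**Figure D1:**
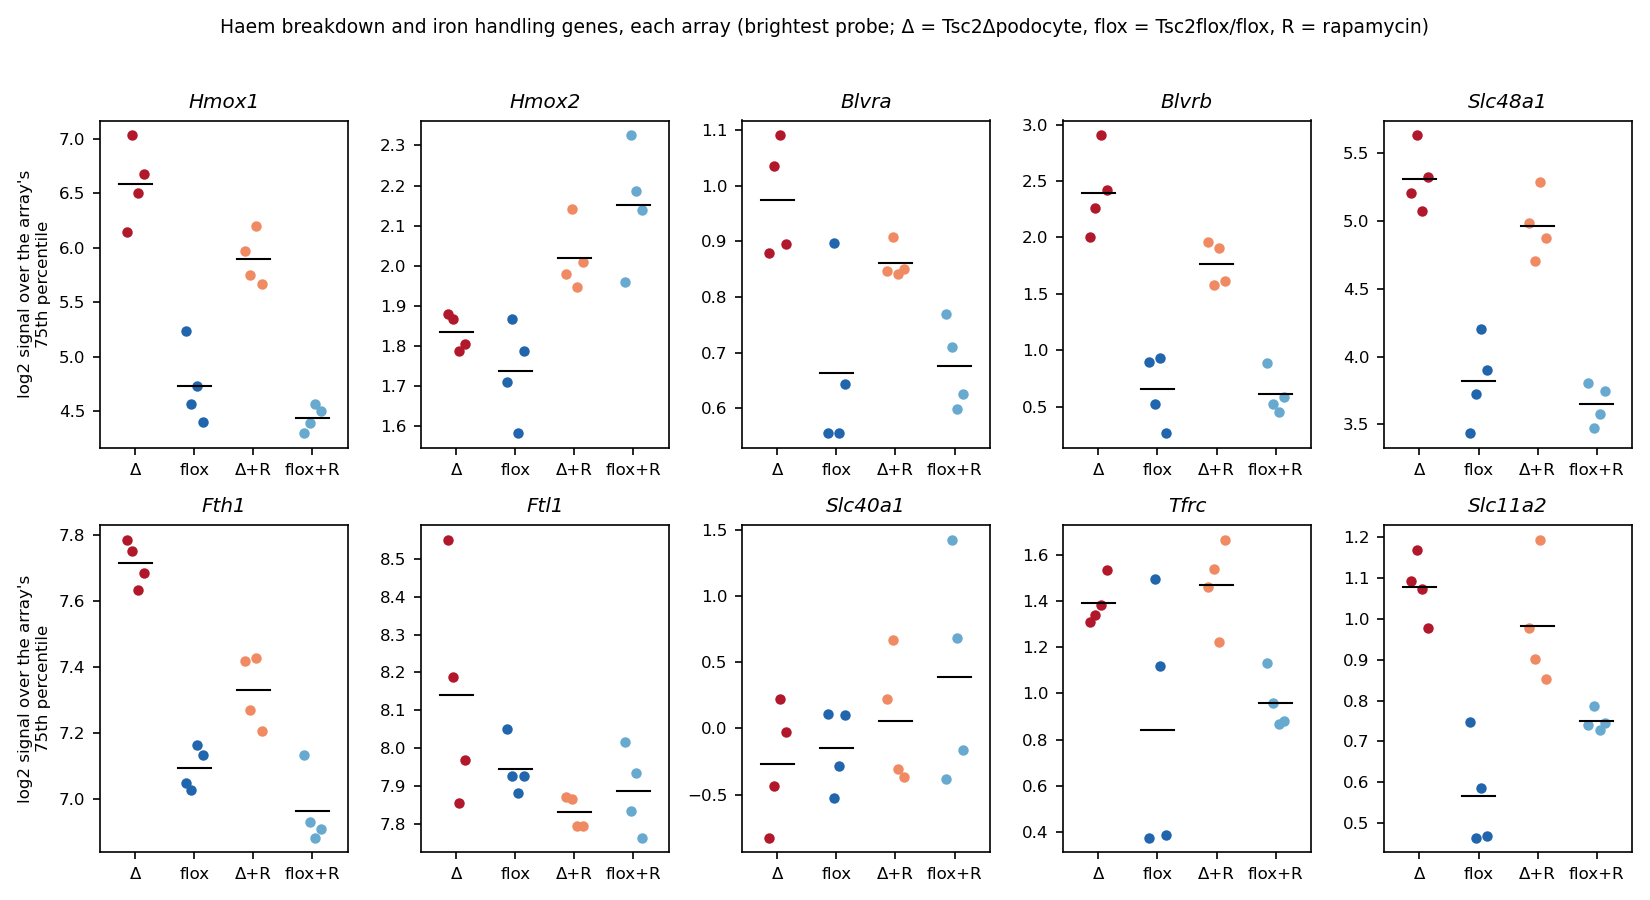
Log2 signal relative to the array's 75th percentile (vertical axis, a different range in each panel) for the brightest probe of each of the 10 genes in the 4 groups (horizontal axis), with 1 point per array and a line at the mean of 4. The Tsc2Δpodocyte points of Hmox1 (6.15 to 7.03), Blvrb (2.00 to 2.90), Slc48a1 (5.07 to 5.63) and Fth1 (7.64 to 7.79) lie above all Tsc2flox/flox points, while those of Slc40a1 mix with them.

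Hmox1, the inducible haem oxygenase, was 6.15, 7.03, 6.5 and 6.68 in Tsc2Δpodocyte replicates 1 to 4 and 5.24, 4.56, 4.73 and 4.40 in Tsc2flox/flox replicates 1 to 4. The lowest Tsc2Δpodocyte array was thus above the highest Tsc2flox/flox array. The group means were 6.59 ± 0.37 and 4.73 ± 0.36 (SD, n = 4 each), a difference of 1.86 (SE 0.20, 95% interval 1.44 to 2.28, adjusted p = 9.18e-05). Hmox2, the constitutive haem oxygenase, was 1.88, 1.87, 1.79 and 1.81 in Tsc2Δpodocyte and 1.71, 1.87, 1.58 and 1.79 in Tsc2flox/flox by its brightest probe, A_52_P477819. These groups overlapped, with a difference of 0.10 (95% interval -0.09 to 0.29, adjusted p = 0.469). The other Hmox2 probe, A_66_P130868, read 0.80, 0.82, 0.80 and 0.66 against 0.56, 0.61, 0.41 and 0.08. On this probe every Tsc2Δpodocyte array was above every Tsc2flox/flox array, by 0.35 on average (SE 0.11, adjusted p = 0.0384), so the 2 Hmox2 probes gave different calls.

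Blvrb encodes biliverdin reductase B, an NADPH-dependent reductase of flavins and of biliverdin isomers. It was 2.00, 2.26, 2.90 and 2.42 in Tsc2Δpodocyte and 0.90, 0.52, 0.93 and 0.26 in Tsc2flox/flox. The groups did not overlap, and the means of 2.40 ± 0.38 and 0.65 ± 0.32 (SD, n = 4 each) differed by 1.74 (SE 0.19, 95% interval 1.33 to 2.15, adjusted p = 9.93e-05). Blvra, the reductase that makes bilirubin, was 0.88, 1.04, 1.09 and 0.89 in Tsc2Δpodocyte and 0.55, 0.90, 0.56 and 0.64 in Tsc2flox/flox by its brightest probe, A_51_P363103. One Tsc2flox/flox array, replicate 2, reached into the range of Tsc2Δpodocyte. The difference was 0.31 (SE 0.09, 95% interval 0.13 to 0.50, adjusted p = 0.0238), or 1.24-fold, and it missed the threshold in 9 of 25 alternative analyses, with adjusted p up to 0.0936. The other Blvra probe read 0.48, 0.69, 0.82 and 0.61 against 0.23, 0.47, 0.17 and 0.34, with no overlap and a difference of 0.35 (SE 0.10, adjusted p = 0.0313).

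Slc48a1 encodes HRG1, which carries haem across the membranes of endosomes and lysosomes. Its brightest probe, A_55_P2059179, was 5.21, 5.63, 5.07 and 5.32 in Tsc2Δpodocyte and 3.43, 3.73, 4.21 and 3.90 in Tsc2flox/flox. The other probe, A_52_P528505, was 3.99, 4.35, 3.97 and 4.17 against 2.77, 2.34, 3.14 and 2.69. Both probes separated the genotypes with no overlap. Their differences were 1.49 (SE 0.17, 95% interval 1.13 to 1.85, adjusted p = 0.000121) and 1.39 (SE 0.16, 95% interval 1.04 to 1.74, adjusted p = 0.000163).

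Of the ferritin chains, Fth1, the heavy chain that oxidises iron as it enters the shell, was 7.79, 7.75, 7.64 and 7.68 in Tsc2Δpodocyte and 7.05, 7.03, 7.16 and 7.13 in Tsc2flox/flox. The groups were tight and apart, with SDs of 0.07 in each, and differed by 0.62 (SE 0.08, 95% interval 0.45 to 0.79, adjusted p = 0.00028), or 1.54-fold. Ftl1, the light chain, has 2 probes, and they disagreed. The brighter, A_55_P2851873, was 8.55, 8.19, 7.86 and 7.97 in Tsc2Δpodocyte and 8.05, 7.93, 7.88 and 7.93 in Tsc2flox/flox. These groups overlapped, with Tsc2Δpodocyte replicate 1 the highest of the 8, and the difference of 0.19 did not pass (95% interval -0.07 to 0.45, adjusted p = 0.285). The dimmer, A_55_P1983959, was 6.90, 7.40, 7.11 and 7.24 against 6.0, 6.09, 6.67 and 6.37. On it every Tsc2Δpodocyte array was above every Tsc2flox/flox array, by 0.88 on average (SE 0.16, 95% interval 0.53 to 1.23, adjusted p = 0.0026). RefSeq lists the pseudogenes Ftl1-ps1, Ftl1-ps2 and Ftl2-ps beside Ftl1, and the files used here hold no probe sequences, so whether either probe also reads a copy was not determined and the Ftl1 values are uncertain.

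Slc40a1 encodes ferroportin, the iron exporter. It was -0.82, -0.43, 0.22 and -0.02 in Tsc2Δpodocyte and 0.11, -0.52, -0.29 and 0.10 in Tsc2flox/flox, with full overlap. Its difference of -0.12 had the widest 95% interval among the 10 genes, -0.90 to 0.66 (adjusted p = 0.854), an interval that holds changes of 1.5-fold in both directions. Tfrc, the transferrin receptor, was 1.31, 1.34, 1.38 and 1.53 in Tsc2Δpodocyte and 0.38, 1.49, 1.12 and 0.39 in Tsc2flox/flox by its brightest probe. The Tsc2flox/flox arrays were scattered, with replicate 2 above 3 of the 4 Tsc2Δpodocyte arrays, and the difference of 0.55 did not pass (SE 0.20, 95% interval 0.11 to 0.98, adjusted p = 0.0772). Without Tsc2flox/flox replicate 2 it was 0.76 (adjusted p = 0.00997). The other Tfrc probe read 0.62, 0.80, 1.07 and 1.04 against 0.04, 0.69, 0.41 and 0.09, with overlap and a difference of 0.57 (adjusted p = 0.0823).

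Slc11a2 encodes DMT1, the divalent metal transporter that moves iron into the cell and out of endosomes. Its brightest probe, A_55_P2830119, was 1.09, 1.17, 1.07 and 0.98 in Tsc2Δpodocyte and 0.75, 0.46, 0.59 and 0.47 in Tsc2flox/flox. The groups did not overlap and differed by 0.51 (SE 0.09, 95% interval 0.32 to 0.70, adjusted p = 0.00168), or 1.43-fold. Of its other probes, A_52_P196476 was -1.01, -0.89, -1.04 and -0.79 against -1.37, -1.27, -1.40 and -1.67, again with no overlap and a difference of 0.50 (adjusted p = 0.00782). A_51_P388737 differed by 0.31 (adjusted p = 0.115) and A_52_P254298 by 0.34 (adjusted p = 0.204), and neither passed. The last of these was dim, with Tsc2flox/flox replicate 4 not well above background.

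**Figure D2:**
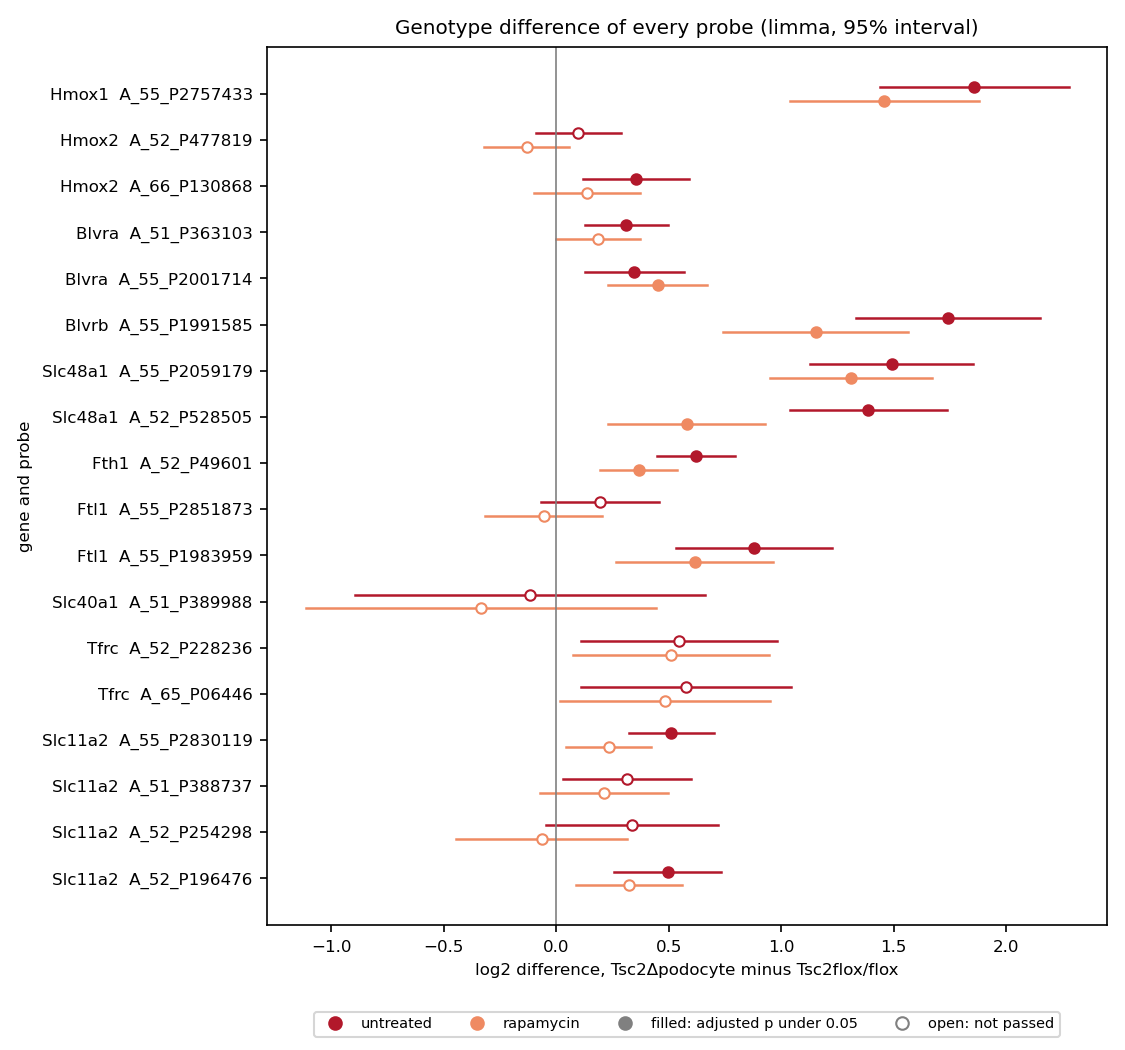
Log2 difference of Tsc2Δpodocyte minus Tsc2flox/flox (horizontal axis) for each of the 18 probes (vertical axis), untreated and with rapamycin, with limma's 95% interval as a bar and points filled where the adjusted p was under 0.05. Without treatment 11 points are filled and with rapamycin 7, all to the right of 0; the 2 Ftl1 probes lie apart, at 0.19 and 0.88 without treatment.

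Promoter sequences are shown for the genes that rose and are in the RefSeq promoter table (GRCm38.p6), to set what these genes share in their control regions beside how they moved. The table holds 11 start sites of 6 of the 10 genes, Hmox2, Blvra, Blvrb, Fth1, Ftl1 and Tfrc. Hmox1, Slc48a1, Slc40a1 and Slc11a2 are not among those analysed here. Each of the 300-base windows was searched on both strands for TGACNNNGC, the core of the antioxidant response element bound by NRF2 and repressed by BACH1, for the AP-1 site TGANTCA and for the E-box CACGTG. Among all 32851 promoters of this length, 12.4% held the first, 7.81% the second and 7.15% the third. Of the 11 windows, 1 held a match, in Blvra, where the antioxidant core lay on the minus strand and started 49 bases before the start site. The 250 bases before the start site are printed 5′ to 3′, with the match in capitals, and where 2 starts are listed the one with more CG pairs is given (18 against 3 for Blvrb and 21 against 3 for Fth1).
Blvra, chr2:127070407-127070656, plus strand: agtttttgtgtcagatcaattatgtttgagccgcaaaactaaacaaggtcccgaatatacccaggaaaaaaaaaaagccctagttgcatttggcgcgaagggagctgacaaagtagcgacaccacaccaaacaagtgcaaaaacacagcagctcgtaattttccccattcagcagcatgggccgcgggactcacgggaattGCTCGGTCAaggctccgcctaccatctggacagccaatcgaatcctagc
Blvrb, chr7:27447728-27447977, plus strand: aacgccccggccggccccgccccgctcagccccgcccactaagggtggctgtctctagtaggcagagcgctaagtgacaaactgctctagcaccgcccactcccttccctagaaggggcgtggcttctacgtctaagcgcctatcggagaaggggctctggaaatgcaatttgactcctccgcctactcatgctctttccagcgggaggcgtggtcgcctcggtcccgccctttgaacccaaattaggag
Fth1, chr19:9982396-9982645, plus strand: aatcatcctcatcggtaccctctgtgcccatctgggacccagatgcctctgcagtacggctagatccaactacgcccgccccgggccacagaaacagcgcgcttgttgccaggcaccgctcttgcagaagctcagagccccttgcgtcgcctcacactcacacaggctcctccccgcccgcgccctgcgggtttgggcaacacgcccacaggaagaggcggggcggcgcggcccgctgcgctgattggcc
The sequences of Blvrb and Fth1, which rose by 1.74 and 0.62, held none of the 3 motifs in these windows, and that of Blvra, which rose by 0.31, held 1. A match is a string of letters and not a site shown to be bound, and the windows do not reach enhancers.

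With rapamycin, 4 of the 10 genes were higher in Tsc2Δpodocyte than in Tsc2flox/flox, Hmox1, Blvrb, Slc48a1 and Fth1, against 6.20% of all genes. None was lower, where 4.97% of all genes were, and probe by probe 7 of 18 were higher against 5.70% of all probes. In 7 of the 10, every Tsc2Δpodocyte + Rapamycin array was above every Tsc2flox/flox + Rapamycin array, against 10.7% of all genes. Hmox1 was 5.97, 5.75, 6.20 and 5.67 in Tsc2Δpodocyte + Rapamycin and 4.29, 4.39, 4.56 and 4.50 in Tsc2flox/flox + Rapamycin. The groups stayed apart, by 1.46 (SE 0.20, 95% interval 1.04 to 1.88, adjusted p = 0.0013), or 2.75-fold. Blvrb was 1.96, 1.58, 1.91 and 1.61 against 0.89, 0.53, 0.46 and 0.58. The groups did not overlap and differed by 1.15 (SE 0.19, 95% interval 0.74 to 1.56, adjusted p = 0.00392), or 2.22-fold.

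Slc48a1 with rapamycin was 4.98, 4.71, 5.28 and 4.87 against 3.81, 3.48, 3.58 and 3.75 by its brightest probe, a difference of 1.31 (SE 0.17, 95% interval 0.95 to 1.67, adjusted p = 0.00104). By its other probe it was 3.53, 3.16, 3.77 and 3.40 against 2.96, 2.69, 2.88 and 3.01, a difference of 0.58 (SE 0.16, 95% interval 0.23 to 0.93, adjusted p = 0.0377). Both probes kept the genotypes apart, and the difference was 2.48-fold by the first and 1.49-fold by the second. Fth1 was 7.42, 7.27, 7.43 and 7.21 against 7.13, 6.93, 6.88 and 6.91, apart by 0.37 (SE 0.08, 95% interval 0.20 to 0.54, adjusted p = 0.0124). The Fth1 call was lost in 4 of 25 alternative analyses, with adjusted p up to 0.141 after normexp background correction, where the difference was 0.22.

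Among the genes that did not pass with rapamycin, Blvra (0.19, adjusted p = 0.192), Slc11a2 (0.23, adjusted p = 0.109) and Tfrc (0.51, adjusted p = 0.124) had no overlap between genotypes on the brightest probe. The second Blvra probe, at 0.89, 0.66, 0.67 and 0.80 against 0.44, 0.42, 0.15 and 0.21, passed with a difference of 0.45 (adjusted p = 0.0149). The second Ftl1 probe, at 6.57, 6.40, 6.85 and 6.64 against 5.98, 5.76, 6.32 and 5.93, passed with 0.62 (adjusted p = 0.0289). The first Ftl1 probe, at 7.87, 7.87, 7.79 and 7.79 against 8.02, 7.83, 7.94 and 7.76, overlapped and differed by -0.06 (adjusted p = 0.815), so its disagreement with the second was seen under both treatments. Hmox2, at 1.98, 2.14, 1.95 and 2.01 against 1.96, 2.32, 2.19 and 2.14, differed by -0.13 (adjusted p = 0.371). Slc40a1, at 0.22, 0.67, -0.30 and -0.37 against -0.38, 1.42, 0.68 and -0.16, differed by -0.34 with a 95% interval from -1.12 to 0.44.

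Whether the genotype difference itself changed with rapamycin was tested as the interaction, and none of the 18 probes passed, against 0.00363% of all probes, which is 1 probe. At an unadjusted p under 0.05, 3 of the 10 genes stood out, against 7.39% of all genes: Blvrb (-0.59, 95% interval -1.17 to -0.01), Fth1 (-0.25, 95% interval -0.50 to -0.01) and Slc11a2 (-0.28, 95% interval -0.55 to -0.01). The second Slc48a1 probe had an interaction of -0.81 (95% interval -1.30 to -0.31, adjusted p = 0.615) and the first one of -0.18 (95% interval -0.69 to 0.33). For Hmox1 the interaction was -0.40 with a 95% interval from -0.99 to 0.19 (adjusted p = 0.787), an interval that holds both no change and a loss of part of the genotype difference. Of the 18 interaction values, 17 were below 0. Several came from the same gene and the share of all probes below 0 was not counted, so this count is not read as a result. The median interaction was -0.24 over the 10 genes and 0.01 over all genes. By their brightest probes, Blvra, Slc40a1 and Tfrc changed sign in some alternative analyses. These values share arrays and genes and are not independent of each other.

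Within Tsc2Δpodocyte, rapamycin arrays against untreated arrays, Fth1 was the only one of the 10 genes to fall, and none rose, where 1.53% of all genes fell and 1.97% rose. Its values, 7.79, 7.75, 7.64 and 7.68 without and 7.42, 7.27, 7.43 and 7.21 with rapamycin, did not overlap and differed by -0.38 (SE 0.08, 95% interval -0.55 to -0.21, adjusted p = 0.0275). The call was lost in 9 of 25 alternative analyses, with adjusted p up to 0.115. The second Slc48a1 probe also fell, by 0.66 (SE 0.16, adjusted p = 0.044), while the first gave -0.35 (adjusted p = 0.244). Hmox1 gave -0.69 (95% interval -1.12 to -0.27, adjusted p = 0.0648) and Blvrb -0.63 (95% interval -1.04 to -0.22, adjusted p = 0.0792). Neither passed, and the Hmox1 arrays overlapped, since 6.15 without rapamycin was below 6.20 with it. All Blvrb arrays with rapamycin were below all those without. The second Ftl1 probe gave -0.55 (adjusted p = 0.0751), also with no overlap.

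Within Tsc2flox/flox, none of the 10 genes passed between rapamycin and untreated arrays, against 0.163% of all genes (65.2% of these higher, or 80.0% after quantile normalization and 52.3% after normexp), and at an unadjusted p under 0.05 there was 1, Hmox2, where 15.9% of all genes were. The methods' t-test gave 2 at p under 0.05, where it gave 4416 of 27579 probes, and 0 after adjustment, where it gave 4 probes. Hmox2 was 1.71, 1.87, 1.58 and 1.79 without and 1.96, 2.32, 2.19 and 2.14 with rapamycin. These arrays did not overlap, and the difference of 0.42 had a 95% interval from 0.23 to 0.60 and an adjusted p of 0.0655. The second Hmox2 probe gave 0.44 (adjusted p = 0.102), again with no overlap. Hmox1 gave -0.30 here, with a 95% interval from -0.72 to 0.13, and Blvrb -0.04, with a 95% interval from -0.45 to 0.37. The rapamycin comparisons in the 2 genotypes and the genotype comparisons share their arrays, and are set side by side only.

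**Figure D3:**
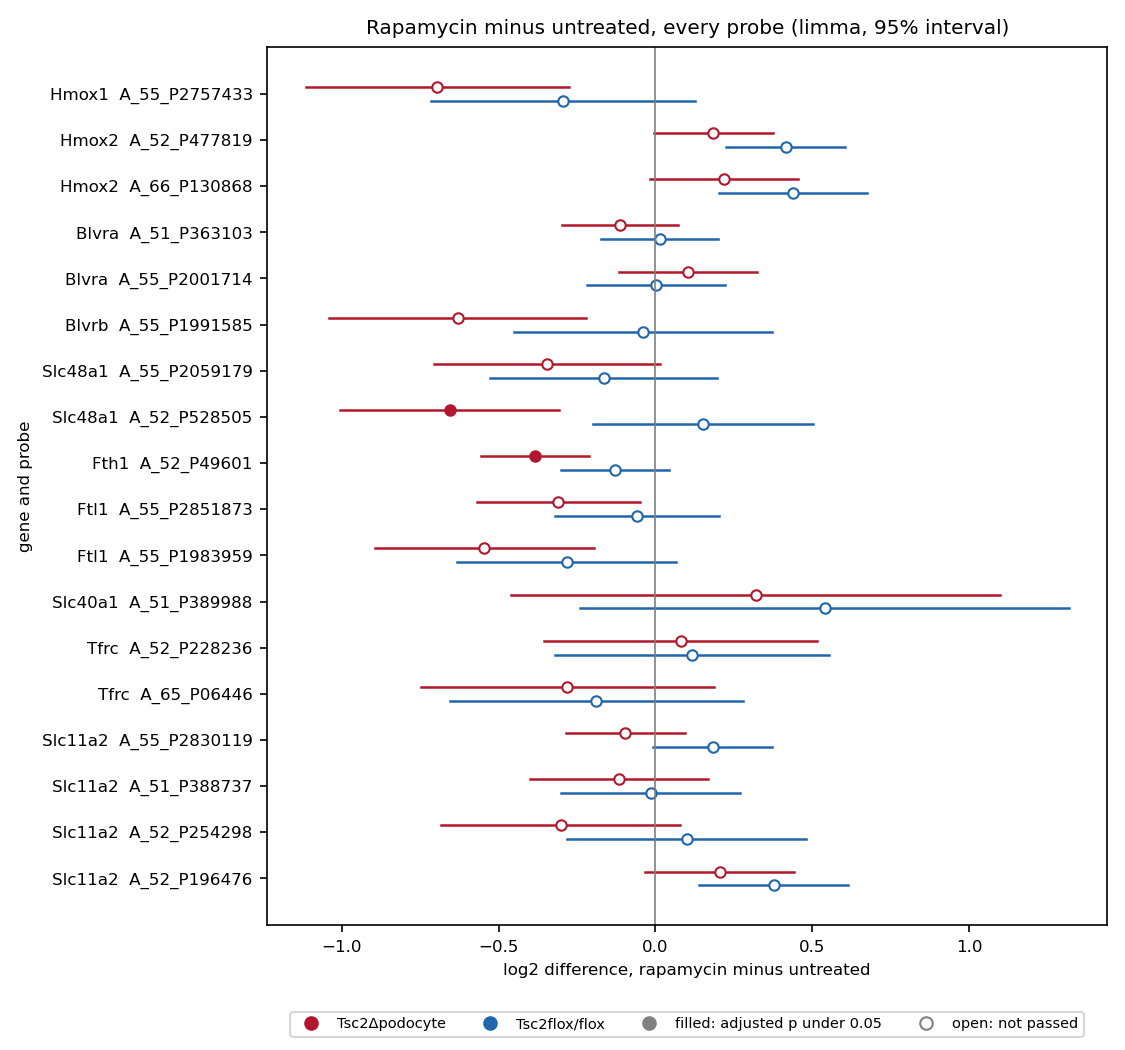
Log2 difference of rapamycin minus untreated arrays (horizontal axis) for each of the 18 probes (vertical axis) in Tsc2Δpodocyte and in Tsc2flox/flox, with limma's 95% interval as a bar and points filled where the adjusted p was under 0.05. In Tsc2Δpodocyte 2 points are filled, Fth1 at -0.38 and the second Slc48a1 probe at -0.66, and in Tsc2flox/flox none is.

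Around these genes, 61 others of haem and iron handling were on the array and 54 were tested. Without treatment 15 of the 54 were higher in Tsc2Δpodocyte, 3 were lower and 36 did not pass, with a median difference of 0.19, where 10.3% of all genes were higher and 9.20% lower. The 15 include Tfr2, whose call supports nothing, and Cybrd1, whose difference is uncertain, for reasons given below. The lists below are small, and their counts are given as a description. In haem synthesis 2 of 8 rose, Alas1, the rate-limiting first enzyme (0.48, adjusted p = 0.00571), and Fech, which inserts iron into the ring at the last step (0.45, adjusted p = 0.00405). In haem transport and binding 3 of 11 rose. These were Hp, haptoglobin, which binds free haemoglobin (2.43, SE 0.53, adjusted p = 0.00703), Abcb6, a porphyrin transporter (0.40), and Pgrmc1, a haem-binding membrane protein (0.36).

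In iron uptake and reduction 4 of 11 rose and 1 fell. Slc39a8, a metal importer (0.98, adjusted p = 0.000835), and Steap3, a ferrireductase of endosomes (0.83, adjusted p = 0.00957), were well above background on all arrays. Cybrd1, a ferrireductase (1.07, adjusted p = 0.0313), was well above background on 3 Tsc2Δpodocyte arrays and 1 Tsc2flox/flox array, so its difference is uncertain. Tfr2, the second transferrin receptor and the last of the 4, was well above background on every array in untreated Tsc2Δpodocyte only and on 1 of 4 in Tsc2flox/flox, so that it entered the test only through the group where it was high and its call supports nothing. Slc22a17, the receptor for lipocalin 2, fell by 1.14 (adjusted p = 0.0016). In iron export and hepcidin control 2 of 4 rose, Heph, a ferroxidase that works with ferroportin (1.51, SE 0.33, adjusted p = 0.00704), and Hfe, a regulator of hepcidin (1.06, adjusted p = 0.00483), while ferroportin itself gave -0.12.

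Of ferritin turnover and iron chaperone genes 1 of 3 rose, Ncoa4, the receptor that takes ferritin to the lysosome (0.31, adjusted p = 0.0253). Of iron regulatory proteins 1 of 3 fell, Ireb2, which binds iron-responsive elements in RNA when iron is low (-0.32, adjusted p = 0.028). Of mitochondrial iron and iron-sulphur cluster genes 2 of 7 rose, Slc25a37, mitoferrin 1 (0.85, adjusted p = 0.000821), and Iscu, the cluster scaffold (0.38, adjusted p = 0.0337). Of 7 regulators of Hmox1 transcription, Nfe2l2, which encodes the activator NRF2, rose by 0.33 (SE 0.10, adjusted p = 0.0397), and Bach2, a repressor related to BACH1, fell by 1.25 (SE 0.12, adjusted p = 7.42e-05). Bach1, the repressor of Hmox1 that haem inactivates, gave -0.43 (adjusted p = 0.065), and Keap1, the inhibitor of NRF2, gave 0.12 (adjusted p = 0.316). The other regulators, Mafg, Mafk and Maff, did not pass either. With rapamycin, 7 of the 54 were higher in Tsc2Δpodocyte and 4 lower, or 5 and 5 after quantile normalization, where 6.20% of all genes were higher and 4.97% lower. Of those that passed without treatment, and Bach1, Alas1 (0.57), Fech (0.43), Abcb6 (0.36), Ncoa4 (0.32), Slc25a37 (0.56) and Nfe2l2 (0.49) were higher, and Slc22a17 (-1.06), Bach1 (-0.57) and Bach2 (-1.05) lower. Among all 7 regulators of Hmox1 transcription, 1 was higher and 3 were lower with rapamycin. None of the 54 passed in the interaction, where 1 had an unadjusted p under 0.05 against 7.39% of all genes.

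**Figure D4:**
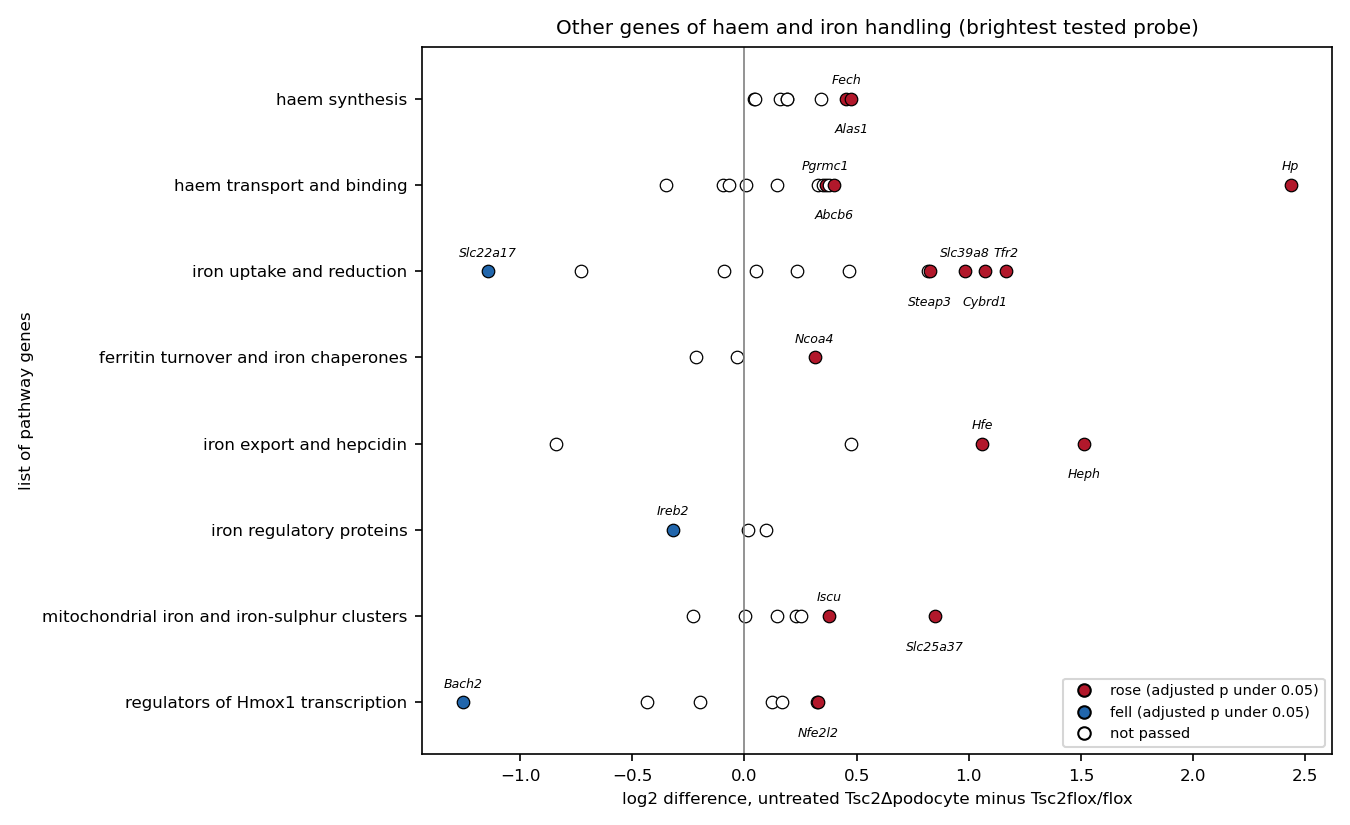
Log2 difference of untreated Tsc2Δpodocyte minus Tsc2flox/flox (horizontal axis) for the 54 other genes of haem and iron handling, 1 point per gene by its brightest tested probe, in 8 lists (vertical axis). Hp lies farthest to the right, at 2.43, and Bach2 farthest to the left, at -1.25; 36 points are open because they did not pass.

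Over the 16 arrays, the genes whose level followed that of Hmox1 most closely by Pearson's r were Vti1b (0.978), Pdk1 (0.973), Bnip3 (0.966), Rnf207 (0.966) and Sucnr1 (0.963). Among the other 9 members, Blvrb followed it most closely (r = 0.944, rank 16 of all genes), then Slc48a1 (0.927, rank 65), Fth1 (0.904, rank 127), Slc11a2 (0.862, rank 328) and Blvra (0.746). Tfrc (0.548), Ftl1 by its brighter probe (0.299), Hmox2 (-0.256) and Slc40a1 (-0.260) followed it least. These values describe the 16 arrays, which fall into 4 groups and share the group differences given above.

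Since macrophages and red cells handle much haem and iron, their markers were read on the same arrays. Of 12 macrophage and leukocyte markers, 10 were tested, and Cd68 (1.03, adjusted p = 0.019) and Cd14 (0.60, adjusted p = 0.016) rose without treatment, where 10.3% of all genes did. Cd163, the haptoglobin-haemoglobin receptor, was well above background on 1 of 16 arrays, and Vsig4 on none. The summed level of the 12, in multiples of the array's 75th percentile, ran from 11.6 to 16.2 in Tsc2Δpodocyte and from 8.92 to 16.04 in Tsc2flox/flox without treatment. With rapamycin it ran from 11.6 to 15.97 and from 11.7 to 16.6, so the sums of the genotypes overlapped under both treatments. The median difference of the 10 tested was 0.62 without treatment and -0.06 with rapamycin, against -0.01 and 0.01 over all genes. With rapamycin none of the 10 tested passed between genotypes. Of 9 red cell and erythroid markers on the array, 3 were tested and Hba-a1 and Hba-a2 rose without treatment, with Hba-a1 well above background on 1 of 4 Tsc2flox/flox arrays and Hba-a2 on 0, so that both entered the test only through Tsc2Δpodocyte groups, where they were high. Slc4a1 and Hbb-bt were not well above background on any array. The summed level of the 9 ran from 0.229 to 0.347 in Tsc2Δpodocyte and from 0.190 to 0.225 in Tsc2flox/flox without treatment, without overlap, and from 0.215 to 0.376 and from 0.174 to 0.300 with rapamycin. Without treatment only 3 or 4 of the 9 were well above background on each Tsc2Δpodocyte array and 1 or 2 on each Tsc2flox/flox array. Alas2 was at -2.86 on 1 Tsc2Δpodocyte array, with a group median of -7.22. The sum also includes Hba-a1 and Hba-a2, so its separation supports nothing. Of the other lists, mesangial Des and Itga8 rose (2 of 5) and parietal epithelial Pax8 and Cdh6 fell (2 of 5) without treatment, proximal tubule Lrp2 fell (1 of 3 tested), and none of 6 endothelial markers passed. Over all genes, 10.3% rose and 9.20% fell in the same comparison. Without treatment the summed mesangial level ran from 293.1 to 400.9 in Tsc2Δpodocyte and from 265.3 to 301.4 in Tsc2flox/flox, the parietal level from 29.9 to 113.3 and from 65.6 to 155.0, the proximal tubule level from 0.804 to 1.67 and from 1.53 to 1.97, and the endothelial level from 6.07 to 58.3 and from 4.15 to 76.6. Each sum adds linear signals, so its brightest markers weigh most. The mesangial sum is mainly Acta2, with a mean log2 signal of 8.12 over all arrays and 2.68 for Des, the next brightest. With rapamycin the endothelial level ran from 2.32 to 5.01 in Tsc2Δpodocyte + Rapamycin and from 2.75 to 8.44 in Tsc2flox/flox + Rapamycin, with a median marker difference of -2.29 from untreated arrays in each genotype and none of the 6 markers passing. The proximal tubule level with rapamycin ran from 0.849 to 0.977 and from 1.45 to 2.49, without overlap between genotypes, the mesangial level from 275.6 to 300.4 and from 257.8 to 320.3, and the parietal level from 78.5 to 278.6 and from 88.7 to 328.4. Between genotypes with rapamycin, 1 of 5 mesangial markers rose, and 2 of 5 parietal and 1 of 3 proximal tubule markers fell, where 6.20% of all genes rose and 4.97% fell. None of the 6 endothelial markers passed in that comparison. Treatment, slide and age cannot be told apart in the endothelial values either. The part of any of these cell types in the differences of the 10 genes was not tested.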

How the data were processed

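RNA of 16 cultures was labelled with a single dye (Cy3) and hybridised to Agilent SurePrint G3 mouse arrays. The deposited scanner files hold spot intensity values, which the authors extracted with Agilent Feature Extraction 10.7.3.1 (background-subtracted processed signal) and processed further in GeneSpring. The deposited series table holds log2 values that the authors scaled and centred on each probe: each column correlated with the probe-centred log2 values used here at r of 0.9997 to 0.9999, its medians ran from -0.155 to 0.239, and it served as an alternative.

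The main values were log2 of the processed signal minus the 75th percentile of each array, over 56605 probes, without control and outlier spots. No spot of the 18 probes was saturated. Replicate spots were averaged, and probes not well above background on every array of at least 1 group were left out, which kept 27579. Accessions were turned into symbols through the RefSeq table. Probes were tested with limma 3.58.1 (R 4.3.3; lmFit and eBayes) over 4 group means, with Benjamini-Hochberg adjustment over the probes within each of 5 comparisons. A gene was read by its brightest tested probe.

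Named genes were the 10 members with every probe, Tsc2, pathway and marker genes that passed in the untreated genotype comparison (others in counts, or where a result turned on them), and the 5 most like Hmox1. The members, lists and tests were chosen with earlier results of these data known. The fit was tested on simulated data. Student's t-test, which the study names for comparing groups in general but not for the arrays, was run on the same values. Alternatives changed the normalization, background correction, filter, values, samples, test and prior, or left out 1 array. The number of arrays limits the precision, and intervals cover the spread between arrays only.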

Additional observations from a re-analysis of the deposited data

Results flagged for a closer look

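In 4 of 80 sets of 4 arrays (the 18 member probes and 2 Tsc2 probes in each group), 1 array lay far from the other 3 by Dixon's test at the 95% level, which compares the gap to the nearest other array with the range of the set. Chance gives this in about 1 in 20 sets. For the brightest Blvra probe, Tsc2Δpodocyte + Rapamycin replicate 2 was at 0.91 and the others between 0.84 and 0.85 (gap 0.887 of the range). For the Hmox2 probe A_66_P130868, Tsc2Δpodocyte replicate 4 was at 0.66 and the others between 0.80 and 0.82 (gap 0.872 of the range). For Tsc2, Tsc2Δpodocyte + Rapamycin replicate 2 was at 2.73 by the brighter probe, above the others at 2.05 to 2.09 (gap 0.950 of the range), and Tsc2Δpodocyte replicate 3 was at -1.82 by the dimmer probe, above the others at -2.46 to -2.38 (gap 0.880 of the range). In the same 2 arrays Hmox1 was 5.75 and 6.5, within the range of its group. No member passed in the test of whether the genotype difference changed with rapamycin.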

How the results depend on the processing

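The untreated and rapamycin genotype differences of Hmox1, Blvrb and Slc48a1 kept their direction and call in all 25 alternatives, and so did those of Slc11a2 and Fth1 without treatment. Several of the 25 can change the call but not the difference, such as leaving out an array of a group not compared. Of the 10 genes, 4 (at 1.5-fold) to 8 (by any probe) passed without treatment and 3 to 6 with rapamycin. The interaction count was 0 in each.

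For rapamycin in Tsc2Δpodocyte, where 1 of the 10 genes passed, the count was 0 after quantile normalization, without the filter, with only the 2 groups in the fit, by Student's t-test and at 1.5-fold, 2 by any probe and 5 after normexp (4 lower, 1 higher), where calls over all genes went from 278 higher and 216 lower to 776 and 580. It was 0 to 2 with 1 array left out: 0 without Tsc2Δpodocyte replicate 1, 2 or 4 or Tsc2Δpodocyte + Rapamycin replicate 2 or 4, and 2 without Tsc2flox/flox replicate 1. For rapamycin in Tsc2flox/flox, where 0 passed, it was 1 after normexp, with a trended prior and without Tsc2flox/flox + Rapamycin replicate 1 (range 0 to 1). Of the 54 related genes, 18 passed without treatment, and 11 without the filter, 11 by the t-test and 10 at 1.5-fold. With rapamycin 11 passed, and 5 without the filter, 6 by the t-test and 2 at 1.5-fold, with a range of 5 (without Tsc2flox/flox + Rapamycin replicate 3) to 16 when 1 array was left out, and 6 without Tsc2Δpodocyte + Rapamycin replicate 1. For rapamycin in Tsc2Δpodocyte 1 passed, and 9 after normexp, 2 with a trended prior, 0 without the filter, with 2 groups, by the t-test and at 1.5-fold, and 0 to 2 with 1 array left out. For rapamycin in Tsc2flox/flox 0 passed, and 5 after normexp, 1 after quantile normalization, with the all-array filter and with a trended prior, and 0 to 1 with 1 array left out.

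Values that changed sign had not passed. After normexp these were Hmox2 (0.0021) and Ftl1 (0.12) for genotype with rapamycin, Blvra for the interaction (0.084), Tfrc for rapamycin in Tsc2Δpodocyte (-0.034), and Blvra (-0.15) and Blvrb (0.091) for rapamycin in Tsc2flox/flox. With 1 array left out, Slc40a1 ran from -0.28 to 0.069 for genotype without treatment, from -0.59 to 0.0079 with rapamycin and from -0.48 to 0.12 for the interaction. Tfrc ran from -0.25 to 0.12 for the interaction. For rapamycin in Tsc2flox/flox, Blvra ran from -0.023 to 0.091, Blvrb from -0.17 to 0.053 and Tfrc from -0.040 to 0.33. The causes were not tested.

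Over all groups, samples with the same replicate number did not deviate together more than others (r from -0.333 to 0.464, over 0.1 in 7 of 24 pairs, against 22 of 72 pairs with different numbers), so the numbers were not taken as pairs. Between the 2 rapamycin groups, r was -0.02, 0.46, 0.17 and 0.29 for replicates 1 to 4, so some shared deviation there is possible. With the replicate block, 6, 4, 0, 1 and 0 of the 10 genes passed in the 5 comparisons, as without it, and 16, 13, 0, 0 and 0 of the related genes. The number of arrays limits what could be detected, and dim probes have less signal over background.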
